A study of Caenorhabditis elegans with 4 samples.

Results

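The transcripts described here are those of the protein-coding genes for the proteins of the large (60S) ribosomal subunit of Caenorhabditis elegans, taken by symbol as rpl- or rplp- followed by a digit. Of 52 such genes in the WBcel235 gene table, 49 were overlapped by at least 1 base of a peak in the MSTR-1 table, and 93 of its 2664 peaks (3.49%, exact 95% interval 2.83 to 4.26) lay over them. In the table of N2 peaks, 13 of 310 (4.19%, 2.25 to 7.06) lay over 13 of the same genes. The measurements come from eCLIP, in which protein and RNA are crosslinked by ultraviolet light in the living animal, the protein is immunoprecipitated and the RNA that comes down with it is sequenced.

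All 4 libraries were made from whole young adult worms, grown at 25 °C, that received 1.2 mJ/cm2 of ultraviolet light. The 2 MSTR-1 immunoprecipitations, which the design text calls biological replicates, and the 1 size-matched input came from worms with the allele F22D6.2(on49[MSTR-1::3xFLAG]) I, in which the gene F22D6.2 carries a 3xFLAG tag. The remaining library is 1 immunoprecipitation from N2, the wild-type strain without the tag. There is no input of N2 worms among these libraries, and both tables use the same input library. The table's columns do not name the replicate, so the letters A and B stand for the MSTR-1 immunoprecipitations.

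The large subunit joins amino acids at its peptidyl transferase centre, which is made of ribosomal RNA and braced by long extensions of a few proteins. Its proteins also line the tunnel through which the new chain leaves, carry the stalk that recruits elongation factors, hold the 5S ribosomal RNA and touch the small subunit across bridges. The messenger RNAs for these proteins are short and are among the most abundant in animal cells, and many worm ribosomal protein genes carry small nucleolar RNA genes in their introns. In whole worms, fewer cells that express a gene and less RNA per cell cannot be told apart.

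The deposited values are reads divided by a size factor per library (0.921 for library A, 1.53 for library B, 0.693 for the input), and all folds below are ratios of these scaled reads. Libraries A and B had 2438775 and 3592308 reads inside MSTR-1 peaks and the input had 408945. Of these, 105702, 164985 and 65703 lay in peaks over protein-coding genes and clear of ribosomal RNA. The 93 large-subunit peaks were deep for this table, with a median of 121, 166 and 119 reads in library A, library B and the input, against 15, 24 and 8 over all peaks. They were also longer, with a median of 268 nt against 165 nt. The table lists only peaks whose mean CLIP level was above 0.5 of the input, so lower peaks, if any, are not in these counts.

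Large-subunit transcripts lay mostly below the input in the MSTR-1 immunoprecipitations. Both libraries were below the input at 66 of the 93 peaks, against 22.0% of all peaks, and both were above it at 17, against 53.0% of all peaks. The median log2 CLIP over input was -0.35 over the members (-0.24 in library A and -0.45 in library B) and 0.53 over all 2664 peaks (0.35 and 0.52), a gap of -0.87. The folds ranged from 0.501 to 2.72 with a median of 0.785, and 10 peaks lay under 0.55, next to the lowest value that the table can list. In limma, fitted over all peaks with Benjamini-Hochberg adjustment at 0.05, 19 member peaks on 16 genes were called lower than the input (1.76% of all peaks were), 2 were called higher (12.7% of all peaks) and 72 were not called. All 19 had both libraries below the input, with mean folds from 0.501 to 0.659. They made up 40.4% of the 47 peaks called lower in the whole table.

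Both the level and the calls went with depth, and deep peaks can be called on smaller differences. Among peaks with at least 50 input reads, 78 large-subunit peaks had a median log2 of -0.39, and 19 of them were called lower and 1 higher. The 272 other peaks over protein-coding genes at that depth had a median of -0.20, and 9.93% were called lower and 11.8% higher. Over the 2453 such peaks of any depth the median was 0.55, so the gap to the members was far narrower among deep peaks. The cut is on input reads, which are also the denominator of the fold. Both libraries were below the input at 63 of the 78 and at 145 of the 272. The 272 include 49 small-subunit peaks, which had a median of -0.51, with 9 called lower and 0 higher. The level of the messenger RNA itself was not measured apart from the input, and its part in the difference was not tested.

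**Figure D1:**
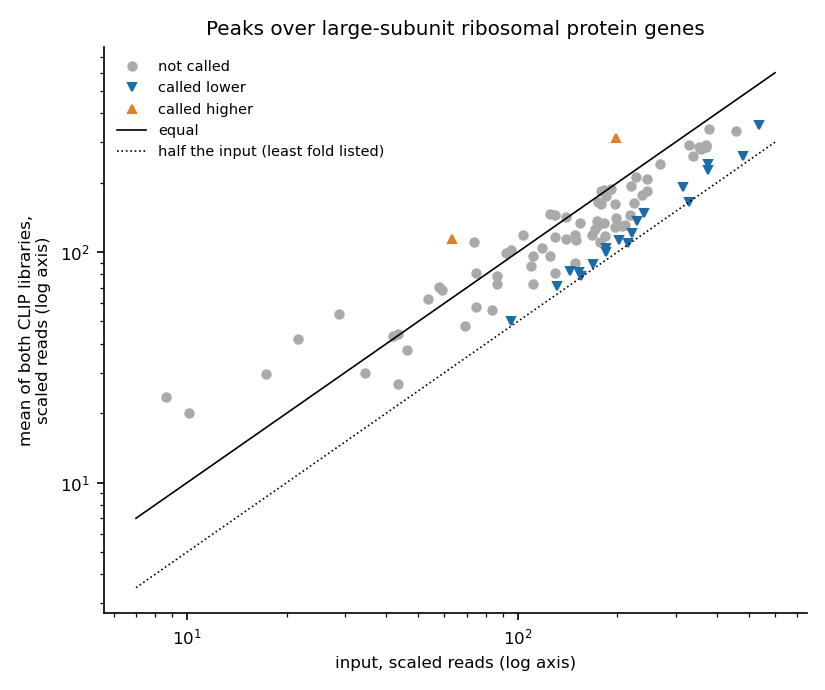
Each point is 1 of the 93 MSTR-1 peaks over a large-subunit ribosomal protein gene, with scaled input reads on the x axis and the mean of both CLIP libraries on the y axis (both log axes). Most points lie between the solid line of equality and the dotted line at 0.5 of the input, below which no peak is listed; the 19 peaks called lower by limma are blue and the 2 called higher, on rpl-41.2 and rpl-29, are orange.

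The lowest peak was on rpl-13A, at 3503131 to 3503469 of chromosome III in the coordinates of the deposited table. Libraries A and B held 165 and 232 reads there, and the input held 229. Its scaled level was 0.542 and 0.460 of the input's, both well under equality, with a limma log2 change of -1.0 (SE 0.24, adjusted p = 0.000675). A peak over rpl-3 at 3869342 to 3869511 of chromosome III followed, with 79, 109 and 108 reads, folds of 0.551 and 0.458 and an adjusted p of 0.00778. On rpl-7, 3 of 4 peaks were called lower, at mean folds of 0.510, 0.526 and 0.545, and on rpl-5 2 of 3 were, at 0.545 and 0.565. The other genes with a peak called lower were rplp-0, rplp-1, rpl-8, rpl-9, rpl-13, rpl-14, rpl-15, rpl-21, rpl-23A.2, rpl-26, rpl-31 and rpl-37A. The rplp-1 peak also overlaps arl-13 and the rpl-14 peak also overlaps nssp-7, so their reads cannot be assigned to 1 gene.

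Summed over the peaks of each gene, 38 of 49 genes lay below the input in both libraries (21.0% of the 1477 protein-coding genes with a peak did) and 7 lay above it in both (50.8%). limma called 10 member genes lower (2.23% of the 1477) and 2 higher (12.9%), with 37 not called. The median log2 was -0.36 over the members and 0.58 over the 1477 genes, and 44 of the 49 were below the median of all genes in both libraries. The 10 genes called lower had mean folds from 0.544 to 0.761. The order within the family is loose: the library values of 46 of 48 neighbouring pairs in it overlapped.

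The libraries moved together across the family. The median SD between them was 0.12 on the log2 scale over the 49 genes, and library A was above library B in 39 of 49, against 48.7% of all genes. Across the members the log2 values of the libraries correlated with r = 0.89, a value that both owe in part to their shared input and for which no p is given. Only 1 of the 93 peaks differed more than 2-fold between libraries A and B, against 698 of all 2664 peaks. That contrast is not matched for depth, as the median over all peaks was 15 and 24 reads, against 121 and 166 here. Of the 55 small-subunit peaks, with medians of 125 and 173 reads, 0 differed that much. At the gene level the widest gap between libraries was in rpl-38, with 50, 45 and 15 reads and folds of 2.51 and 1.36. Next came rpl-36A, with 206, 193 and 114 reads, at 1.36 of the input in library A and 0.769 in library B.

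Of the 3 proteins that reach toward the peptidyl transferase centre, rpl-3, rpl-4 and rpl-8, all had many reads and folds from 0.738 to 0.808. For rpl-8, whose protein is known to lie close to the catalytic RNA, 682, 998 and 635 reads gave folds of 0.809 and 0.714 (limma log2 -0.40, SE 0.14, adjusted p = 0.037). For rpl-3, which carried 5 peaks, the most of any member, 595, 958 and 598 reads gave 0.749 and 0.728 (log2 -0.44, SE 0.15, adjusted p = 0.0218). Both genes were thus lower than the input in both libraries. The gene with the most CLIP reads in the family, rpl-4, whose protein also lines the exit tunnel, had 694, 1059 and 621 reads and a mean fold of 0.808, and was not called (adjusted p = 0.141).

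The 5S ribosomal RNA is held by the products of rpl-5 and of the rpl-11 genes, which in yeast and mammals enter the subunit together as a particle. rpl-5 had 350, 605 and 438 reads, folds of 0.602 and 0.627 and a log2 change of -0.70 (SE 0.17, adjusted p = 0.000484). Of the rpl-11 paralogues, rpl-11.1 had no peak and rpl-11.2 had 223, 280 and 177 reads at a mean fold of 0.834 (adjusted p = 0.549). Reads of such paralogues, here and in the rpl-23A and rpl-41 pairs below, can be placed on the wrong copy where sequences match. The sequences were not compared, and the sources used here do not say how reads with several matches were treated.

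The stalk that recruits translation factors is built on rplp-0 and carries the small acidic proteins of rplp-1, rplp-2.1 and rplp-2.2, while rpl-12 sits at its base. rplp-0 had 326, 527 and 395 reads and folds of 0.621 and 0.606 (limma log2 -0.70, SE 0.18, adjusted p = 0.000822). rplp-1, measured over 1 peak that is shared with arl-13, had 253, 320 and 261 reads and folds of 0.730 and 0.557 (log2 -0.65, SE 0.20, adjusted p = 0.0129). Both were called lower. Their partners were not: rplp-2.1 had 199, 235 and 124 reads with library A above the input at 1.21 and library B below it at 0.861, and rplp-2.2 had a mean fold of 0.884. rpl-12, with 110, 163 and 104 reads, lay at 0.754 (adjusted p = 0.434). The other stalk of the subunit, formed by the product of rpl-10a, had 426, 597 and 276 reads and a mean fold of 1.07 (adjusted p = 0.864).

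Around the tunnel exit, where the signal recognition particle and chaperones dock, 7 of 8 genes had a peak and none was called at the gene level. Their mean folds ran from 0.576 to 1.08. The paralogues rpl-23A.1 and rpl-23A.2, which encode the main docking protein, were at opposite ends of that range: rpl-23A.2 had 83, 116 and 100 reads and a fold of 0.576 (adjusted p = 0.0502), and rpl-23A.1 had 73, 127 and 52 reads and a fold of 1.08 (adjusted p = 0.920). The difference between these paralogues was not tested. Single peaks were called lower on rpl-23A.2, rpl-26 and rpl-31, although as whole genes rpl-26 (396, 533 and 354 reads) and rpl-31 (126, 173 and 135 reads) were not, at mean folds of 0.763 and 0.642. rpl-17, rpl-19 and rpl-35 lay at 0.811, 0.709 and 0.732, with both libraries below the input. rpl-39 had no peak.

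The members that stood highest were 4 genes with 1 peak each. rpl-41.2, which encodes a very short protein lodged at the interface with the small subunit, had 322, 425 and 137 reads at 4790271 to 4790527 of chromosome I. Its folds were 1.77 and 1.41 (limma on the gene, log2 0.66, SE 0.21, adjusted p = 0.0129), and the edgeR test on the recovered reads gave an adjusted p of 0.0257. rpl-29, at 13882207 to 13882518 of chromosome IV, had 121, 149 and 44 reads and folds of 2.07 and 1.54 (log2 0.83, SE 0.30, adjusted p = 0.045 in limma and 0.105 in edgeR). Both genes lay above the input in both libraries. With TMM scaling neither was called (adjusted p of 0.303 and 0.375).

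The remaining 2 of these genes were shallow and were not called. rpl-41.1, the paralogue of rpl-41.2, had 24, 32 and 6 reads, folds of 3.01 and 2.42 and a log2 change of 1.34 (SE 0.60, adjusted p = 0.127). rpl-38, whose mouse counterpart is known for a role in translating Hox messenger RNAs, had 50, 45 and 15 reads, folds of 2.51 and 1.36 and an adjusted p of 0.234. The third bridge gene, rpl-24, was below the input in both libraries, with 223, 284 and 197 reads and a mean fold of 0.754 (adjusted p = 0.221). On scaled reads per 100 nt of peak, rpl-41.2 had the highest level of all 49 genes in both CLIP libraries (136 and 108) and was 13th in the input (76.9), while rpl-8 was highest in the input (146, with 118 and 104 in the CLIP libraries). rpl-41.1 was lowest, at 10.7, 8.63 and 3.56.

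Of the 29 genes outside these roles, 28 had a peak, and 5 were called lower and 1 (rpl-29) higher. rpl-7 had 326, 439 and 409 reads and folds of 0.600 and 0.488, the lowest mean in the family (limma log2 -0.88, SE 0.18, adjusted p = 1.58e-05). rpl-37A, with 244, 393 and 333 reads over a single peak, had folds of 0.552 and 0.536 (log2 -0.88, SE 0.19, adjusted p = 9.12e-05). rpl-13A, with 311, 462 and 382 reads, had folds of 0.613 and 0.549 (log2 -0.78, SE 0.18, adjusted p = 0.000219). In these 3 genes both libraries were low, with an SD between them of 0.21, 0.03 and 0.11 on the log2 scale. rpl-21 (213, 399 and 266 reads, mean fold 0.642, adjusted p = 0.0131) and rpl-13 (377, 661 and 413 reads, 0.707, adjusted p = 0.0234) were the other genes of this group called lower. rpl-7A, which despite its symbol encodes a protein of another family than rpl-7, had 560, 980 and 525 reads at 0.826 (adjusted p = 0.249), and rpl-15 had 483, 700 and 412 at 0.827 (adjusted p = 0.320). rpl-9, with 268, 461 and 287 reads, and rpl-14, with 144, 233 and 148, also carried a peak called lower and had gene folds of 0.716 and 0.724, neither called. Closer to equality rpl-6, with 120, 224 and 95 reads, lay at 0.951 and 1.07. rpl-42 had no peak. The genes rpl-10L, rpl-18, rpl-18A, rpl-34, rpl-35A, rpl-36, rpl-37.1 and rpl-37.2 lay between 0.709 and 0.883, with both libraries below the input and none called.

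Position within the transcript went with the level. The strand listed for the peaks was taken as the transcript's, since the gene table gives none, and all peaks of a gene were on 1 strand. A peak reached the annotated 3′ end in 42 genes, running 5 to 23 nt past it (median 19). These 42 peaks had a median fold of 0.902, with 17 above 1, 4 called lower and both of the peaks called higher. The other 51 had a median of 0.689, with 5 above 1, 15 called lower and 0 called higher.

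Within the 29 genes that had both kinds, the 3′-end peak was above the median of the gene's other peaks in both libraries in 23, and below it in both only in rpl-4. The median log2 difference was 0.44 (0.47 in library A and 0.39 in library B), and changing the library scaling leaves it as it is apart from the pseudocount. rpl-14 had the widest gap: its 3′-end peak held 49, 84 and 20 reads at a fold of 1.88, and its other peak, the one shared with nssp-7, lay at 0.544. In rpl-31 the values were 1.04 and 0.535, in rpl-13A 1.02 and 0.559, and in rpl-30, where the 3′-end peak held 27, 46 and 12 reads, 1.72 and 0.912.

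The same comparison in other protein-coding genes gave 54.2% of 216 genes with the 3′-end peak higher in both libraries, and a median difference of 0.35. When only peaks of other genes with at least 50 input reads were kept, it was 22 of 30 genes, with a median of 0.40. The members' peaks had no such cut. Without the cut, the 3′-end peak was higher in both libraries in 11 of 17 small-subunit genes, with a median difference of 0.34. The difference between the members and other genes was not tested. Across the 93 peaks, which share libraries and in part genes, the log2 fold correlated with the position of the peak's centre along the gene with Pearson's r = 0.51 and Spearman's rho = 0.56. Over 2560 pairs of a peak and another protein-coding gene r was 0.01, and over the 300 with at least 50 input reads it was -0.04. These pairs pool genes of all lengths and overlaps on either strand, with the position taken from the peak's strand. Unlike the comparison within genes, r also mixes differences between genes.

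**Figure D2:**
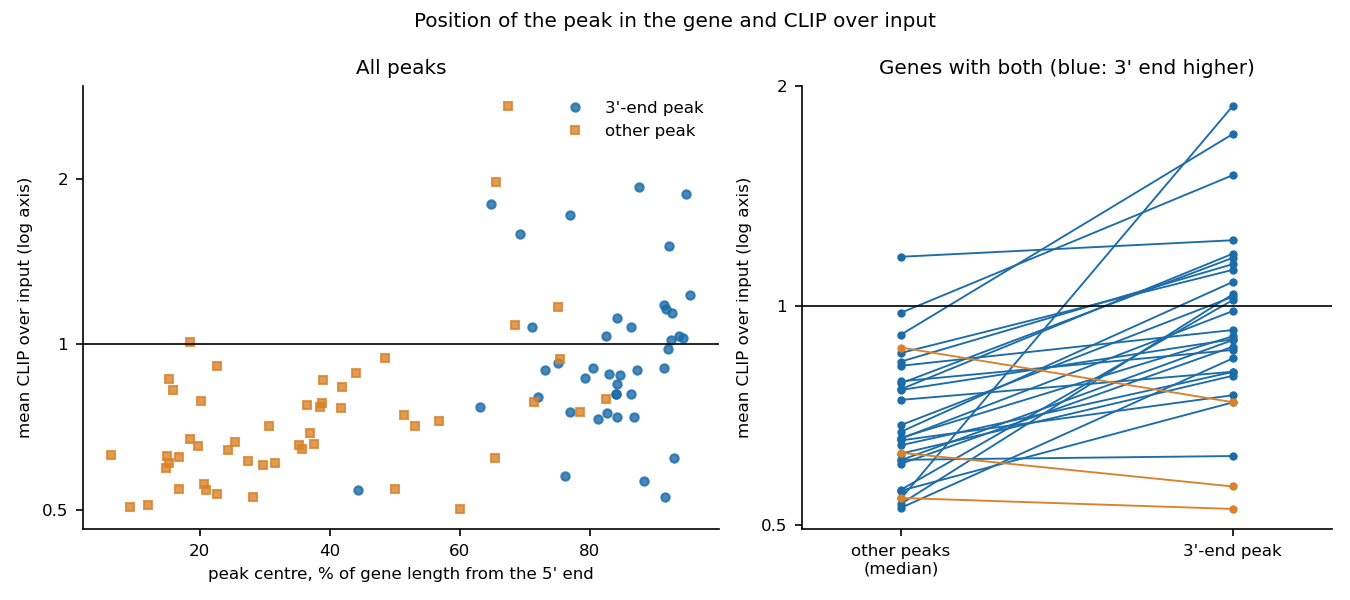
Left, mean CLIP over input (log axis) against the position of the peak's centre in percent of the gene's length from its 5′ end, for the 93 peaks, with peaks at the annotated 3′ end as blue circles and others as orange squares. Right, in the 29 genes with both kinds, the other peaks' median and the 3′-end peak of a gene are joined by a line, blue where the mean of the 3′-end peak is the higher, as in 26 genes.

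Small nucleolar RNA genes lie under 8 of the 93 peaks, on rpl-4, rpl-7A, rpl-15, rpl-24, rpl-26 and rpl-27A. Reads there cannot be assigned to the messenger RNA or to the small RNA. Their mean folds ran from 0.657 to 1.17 with a median of 0.825, and 0 were called by limma, while the other 85 peaks had a median of 0.782. The highest, on rpl-7A, held 128, 236 and 87 reads and lay above the input in both libraries, at 1.11 and 1.23.

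As a share of the reads in the 2546 peaks over protein-coding genes and clear of ribosomal RNA, large-subunit peaks held 11.7% of library A (exact 95% interval 11.5 to 11.9), 11.15% of library B (with an upper limit of 11.3) and 17.4% of the input (17.1 to 17.7). These intervals cover counting error only. The share does not depend on the size factors, and it was lower in both immunoprecipitations than in the input. Its total holds only listed peaks, all above 0.5 of the input, so it is not a share of all messenger RNA reads. How that selection of peaks moves the share was not tested.

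The immunoprecipitation from untagged N2 worms also gave peaks on these genes. Of the 93 MSTR-1 peaks, 13 (14.0%, 7.66 to 22.7) were overlapped on the same strand by an N2 peak, against 8.75% of all MSTR-1 peaks. These 13 N2 peaks, 9 of them at a 3′ end, held 20 to 63 N2 reads, with folds over the input from 1.03 to 2.29 and a median of 1.25, while the N2 peaks with an input read had a median of 4.64. At only 2 of the 13 did the 95% counting interval of the fold lie above 1. For rpl-23, 48 N2 reads against 60 input reads gave 2.29 (1.53 to 3.41), and for rpl-22, 26 against 40 gave 1.86 (1.09 to 3.13).

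Each table has its own size factors, and the N2 table lists only peaks above the input, so N2 and MSTR-1 levels are set side by side without a test. Over the 13 overlapped MSTR-1 peaks the mean fold was between 0.671 and 1.12 (median 0.904), and the fold of the N2 peak was the higher at all 13. The stretches differ, as the N2 peak covered from 31.3% (rpl-26) to 99.5% (rpl-27A) of the MSTR-1 peak. Only 8 of the 13 were covered by at least 50%. At 3 of the 13 the N2 peak covered an equal number of input reads as the MSTR-1 peak. There rpl-27 had 144 and 255 MSTR-1 reads and 45 N2 reads over 124 input reads, rpl-27A had 189, 262 and 63 over 133, and rplp-2.2 had 60, 72 and 26 over 58. Summed over all MSTR-1 peaks of the gene, rpl-23 (137, 173 and 121 reads, mean fold 0.751), rpl-28 (200, 280 and 193, 0.720), rpl-27A (257, 372 and 210, 0.863) and rpl-32 (377, 514 and 294, 0.880) were below the input in both libraries. N2 reads at the other 80 peaks were not analysed here. At an N2 level equal to the input, 84 of the 93 peaks would hold 11 N2 reads or more, the fewest in any listed N2 peak.

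**Figure D3:**
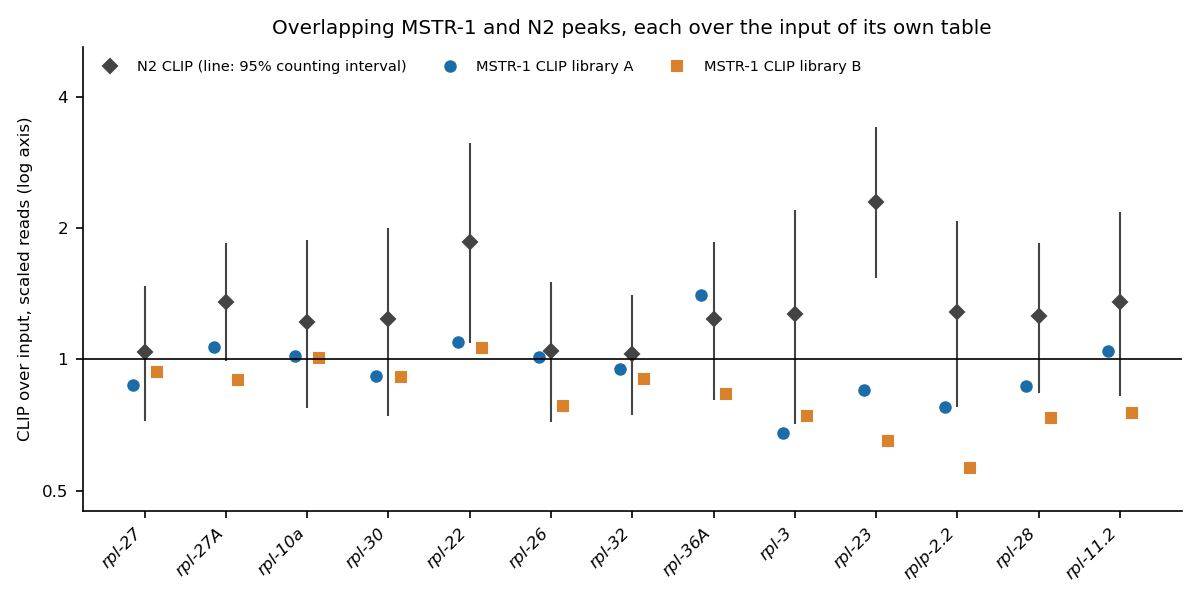
The 13 places where an MSTR-1 peak over a large-subunit gene and an N2 peak overlap, with CLIP over the input of the own table on a log axis. Each fold is over the whole of its own peak, and the overlapping peaks differ in width. N2 CLIP is a diamond with its 95% counting interval, and libraries A and B are a circle and a square; all N2 values are above 1, as the N2 list requires, and only those of rpl-22 and rpl-23 have an interval wholly above 1.

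Other genes of the translation machinery were read from fixed lists, by counts and medians alone. All 30 small-subunit ribosomal protein genes had a peak, with 7 called lower, 0 higher and a median log2 of -0.45, and 27 were below the input in both libraries. Of 6 genes for elongation factors, which bring aminoacyl-tRNA and move the ribosome along, 3 were called lower: eef-1A.1 (mean fold 0.657), eef-1B.1 (0.576) and eef-2 (0.716). The list's median was -0.35. The fusion gene ubq-2, which encodes ubiquitin joined to a large-subunit protein, was at -0.43 and not called. Only 3 of 42 genes for proteins of the mitochondrial large subunit had a peak, with 0 calls and a median of 0.61 (0.38 in library A and 1.19 in library B). Of the assembly and export factors eif-6, lpd-6 and nog-1 had one, with 0 calls and a median of 0.20 (-0.14 and 0.59). Both medians rest on few reads, with 1 input read in mrpl-4 and in lpd-6 and at most 11, in mrpl-12.

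How many members were called depended on the scaling and the tool, while the members' median stayed negative. The other scalings all raised the CLIP size factors and lowered the input's. They could only lower this median, so its kept sign is no support. For the peaks, the lower calls among the 93 and the share of all peaks called lower were 14 and 1.24% for edgeR on the authors' size factors. In DESeq2, which gave an adjusted p to 1011 peaks, 91 of them members, they were 33 and 9.20% of the 1011. They were 43 and 5.63% for TMM scaling, and 89 and 41.7% when libraries were scaled by their totals. Of the 19 peaks called lower by limma, 14, 18, 19 and 19 were also called in these fits. For the genes the corresponding values were 10 and 2.03%, 15 and 7.84% (of the 561 genes with an adjusted p in DESeq2, 48 of them members), 29 and 7.11%, and 27 and 6.50%. Higher calls among the member peaks were 0 in all 4 fits, against 10.5%, 9.40% (of the 1011), 4.43% and 1.88% of all peaks. Among the member genes they were 1 in edgeR (rpl-41.2) and 0 in the others, against 11.3%, 9.80% (of the 561), 8.80% and 9.21% of all genes. The uncalled genes rpl-6, rpl-10a, rpl-23A.1, rpl-36A and rplp-2.1, just above the input here, lay below it with TMM, totals and DESeq2's factors. Without the trend of the variance on the level limma made 0 calls among the members, and its share over all peaks is not given here. The gap between the members' gene median and that of all genes was -0.94 with the authors' size factors, -0.96 with TMM, -0.96 with totals and -0.97 with DESeq2's factors. A change of size factors shifts all genes nearly alike, so this gap could hardly move and its steadiness is no support. With the authors' factors it was -0.58 in library A alone and -1.02 in library B alone.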

How the data were processed

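The authors deposited 2 peak tables, for the MSTR-1 and the N2 immunoprecipitations, with a signal per library and a fold over the input. The submitters' processing notes name STAR, cutadapt, deepTools and UMI-tools without versions. Not given in the sources used here are the peak caller, its threshold and the build. The deposited signal is reads divided by a size factor. Whole reads were recovered from its steps, with 100% of values within 0.02 of a whole read. The deposited fold of the MSTR-1 table divides the summed CLIP columns by the input, so the mean fold used here was recomputed.

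Peaks were assigned to genes by position (1 bp, either strand) with the RefSeq gene table of WBcel235. That assembly was checked against the peaks: 38 peaks ran 10 to 30 nt past a member's annotated 3′ end, against at most 2 with the annotation shifted by 100 to 1000 nt. Peaks were tested with limma 3.58.1 in R 4.3.3 on log2(scaled reads + 1), which understates changes of low values, with a variance trend, over all 2664 peaks or 1477 genes, with no filter. The lone input is taken to vary like the CLIP libraries. edgeR 4.0.16 on the recovered reads (33 peaks lower and 279 higher, against 47 and 337 by limma) and DESeq2 1.42.0 were alternatives, with other scalings, pseudocounts, filters and overlaps. The fits were tested on simulated data.

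The members and gene lists were chosen with earlier results of these data known. Named genes are those with a called peak, the 5 highest, the 5 lowest, the 5 with most reads and with most peaks, up to 10 with an N2 peak, the stalk genes and the paralogues.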

Additional observations from a re-analysis of the deposited data

Results flagged for a closer look

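At 7 of the 13 places where peaks of both tables overlap, both MSTR-1 libraries lay below the input while the N2 library lay above it. The N2 folds over the input were 1.04 for rpl-27, 1.23 for rpl-30, 1.03 for rpl-32, 1.27 for rpl-3, 2.29 for rpl-23, 1.28 for rplp-2.2 and 1.25 for rpl-28. The difference was not tested, as N2 CLIP is 1 library scaled in its own table. The folds are also over unlike stretches, as the N2 peak covered from 47.5% (rpl-3) to 92.4% (rpl-28) of the MSTR-1 peak. The N2 list holds only folds above 1, so no other direction could be listed. Of these 7, only the counting interval for rpl-23 lies above 1.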

How the results depend on the processing

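Under all alternatives run, the medians of the member peaks and genes kept their sign. The other scalings could not have changed it, since each raised both CLIP size factors and lowered the input's. The peak median of -0.35 was -0.78 with TMM, -2.41 with column totals and -0.75 with DESeq2's factors, while the median of all peaks went from 0.53 to 0.12, -1.40 and 0.16. The gene median of -0.36 was -0.64, -0.60 and -0.72. The 19 peaks called lower became 43 with TMM, 89 with totals, 33 in DESeq2 and 0 in limma without the variance trend, and the 10 genes 29, 27, 15 and 0. No peak or gene of the family had an unadjusted p under 0.05 in that last fit. The 2 peaks called higher became 0 in edgeR (4 at an unadjusted p under 0.05), in DESeq2 (0), with TMM (0), with totals (0) and without the trend (0), and 1 among peaks with at least 50 input reads. The 2 genes called higher became 1 in edgeR, 0 in the other fits and without the trend, and 1 with a pseudocount of 5. With 1 CLIP library alone the peak median was -0.24 or -0.45, the gene median -0.25 or -0.45 and the 3′-end difference 0.47 or 0.39, with no test possible from 1 library against 1. The N2 overlap of 13 peaks became 8 when 50% of the peak had to be covered. Of 34 named genes the log2 value moved by more than the spread between libraries in 29 with TMM, 27 with totals, 32 with DESeq2's factors and 1 with a pseudocount of 5, and no called gene changed direction. The uncalled genes rpl-6 (main value 0.02), rplp-2.1 (0.05), rpl-36A (0.09), rpl-10a (0.10) and rpl-23A.1 (0.11) turned negative with TMM (-0.26, -0.23, -0.19, -0.18 and -0.16) and also with totals and DESeq2's factors. With library B alone 3 named genes turned negative, and with library A alone 1. Limiting peaks to the gene's annotated strand was not run, as the gene table used has no strand. No paired analysis was possible because the columns carry no replicate number and the input and N2 are 1 library each. Few reads limit rpl-41.1 and rpl-38, with 6 and 15 input reads. The 50-read and 3′-end comparisons were chosen after seeing the data.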
